A study of Chromochloris zofingiensis with 14 samples.

Results

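The genes described here are the nuclear gene models of the green alga Chromochloris zofingiensis whose deposited description names fatty acids, acyl groups, lipids, glycerol, desaturases or acetyl-CoA carboxylase. They numbered 88 of 15274 nuclear gene models and 15369 in all, and 502 nuclear models carried a name. All 88 were found through their description, and the carotenoid desaturases PDS and ZDS were left out. The series sequenced RNA of strain SAG 211-14, with 1 library for each of 14 cultures. Per the labels these were low, medium and high light at 40, 100 and 400 μmol photons m−2 s−1, a 48 h dark culture, 1 h without nitrogen, phosphorus, sulfur or iron, 2 h with 1 mM hydrogen peroxide, 5 μM rose bengal with 1 h of light after 0.5 h of darkness or 3 h of light after 1 h of darkness, 72 h with 20 mM glucose, and 4 h of anaerobic culture in light or in darkness. All cultures grew in Proteose medium, and those not kept dark or named by their light received the medium light. The processed data analysed here were gene models without expression values, so no condition was compared and read depth is unknown.

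Plastids of algae build fatty acids by repeated cycles in which a chain bound to acyl carrier protein is lengthened by condensation, reduction, dehydration and a further reduction. The chains are then desaturated, activated and joined to glycerol, which gives the galactolipids and sulfolipid of photosynthetic membranes, phospholipids and betaine lipids of other membranes, and triacylglycerol, the storage oil. Green algae of this kind are known for storing triacylglycerol under stress, in the same cells that accumulate ketocarotenoids.

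Coding length is the sum of a model's coding segments, and an intron is the gap between neighbouring segments. The 88 models had a median coding length of 1320 bases, with quartiles of 978 and 1563 bases. The median of all nuclear models was 1041 bases, and that of the 414 other named nuclear models was 1054.5 bases. The number of introns was 4.81 ± 3.06 (SD, n = 88 genes), beside 3.97 ± 4.41 (SD, n = 15274 genes) over all nuclear models and 4.89 ± 3.61 (SD, n = 414 genes) over the other named ones. These SDs describe the spread among genes and are no replicate error, and none of these differences was tested. No intron was present in 4 members, 4.55%, beside 17.7% of all nuclear models and 7.25% of the other named ones. At least 10 introns were present in 3 members, 3.41%, beside 8.13% of all nuclear models and 8.7% of the other named ones. The 423 introns of the members had a median of 272 bases and ran from 68 to 647 bases. The median was 260 bases over all nuclear introns and 273 bases over those of the other named models. Of the members' introns, 50.6% lay between codons, 28.6% after the first base of a codon and 20.8% after the second. The corresponding shares over all nuclear introns were 52.9%, 25.0% and 22.2%, and those over the other named models 54.9%, 24.2% and 20.9%. Most gene models carry a deposited score whose meaning is not stated, and manual members carry none. The score was under 0.5 in 13 of 83 scored members, 15.7%, beside 19.8% of scored nuclear models and 14.6% of the other named ones with a score.

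Members lay on all 19 chromosomes, with 2 to 9 on each, and 2 lay on unplaced contigs. Chromosome 6 held 9 and chromosome 13 held 8. Chromosome 13 carried 549 genes in all, whereas chromosome 3 had 3 members among 1080 genes. The plus strand carried 47 members and the minus strand 41. The gene on the 5′ side of a member lay a median of 1261.5 bases away, coding region to coding region, beside 932 bases for all nuclear genes.

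**Figure D1:**
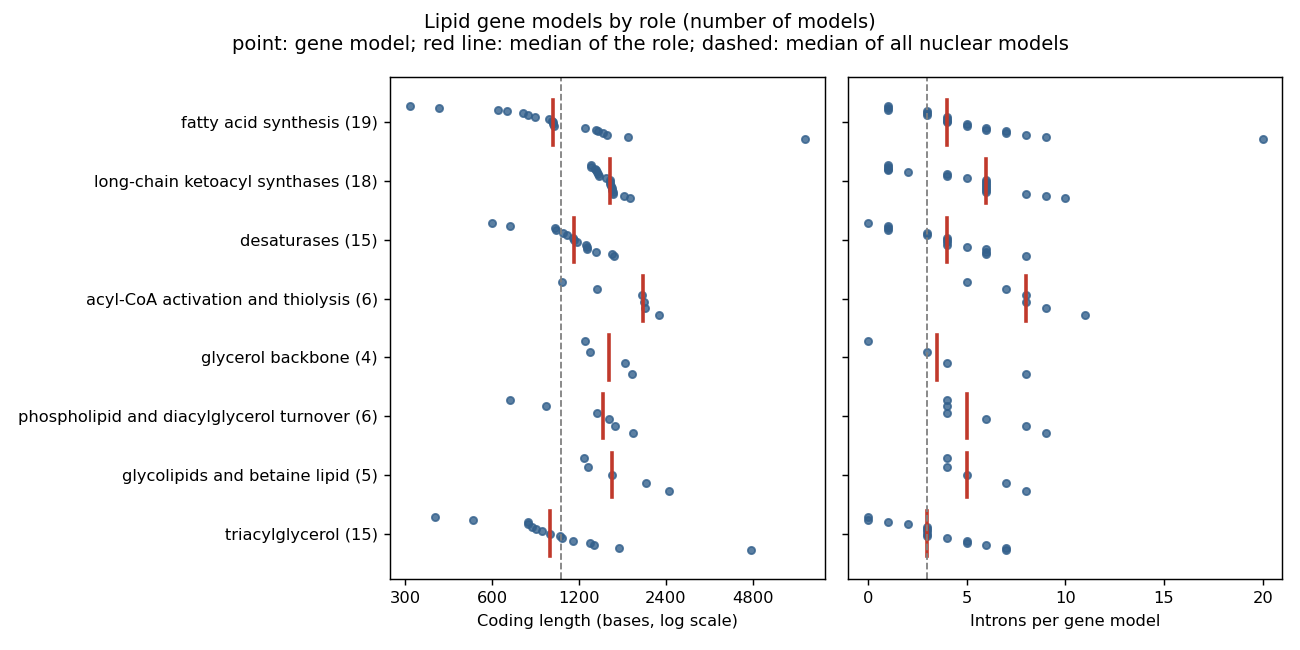
Coding length in bases on a log scale (left) and number of introns (right) of each of the 88 models, grouped by role. Points are gene models, red lines are the medians of a role, and the dashed lines are the medians of all nuclear models. ACC1, with 7281 bases and 20 introns, lies farthest to the right in both panels.

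The enzymes of fatty acid synthesis comprised 19 models on 13 chromosomes and 1 unplaced contig. Acetyl-CoA carboxylase makes malonyl-CoA, the building block of chain growth, and its name stands in the descriptions of 3 members. ACC1 (Cz19g10190) is described as acetyl-CoA carboxylase, with no subunit named. CAC2 (Cz02g12030, 1455 bases in 8 segments) and CAC1 (Cz02g17060, 1257 bases in 5) are described as the alpha and beta carboxyltransferase subunits of the multi-subunit form, and both lay on chromosome 2, on the minus strand. No description among the members names another subunit of that form, and none was searched for beyond the rule. The first introns of ACC1 and CAC2 had the same length, 79 bases, as had that of DGAT2F (Cz06g35060), a member of another family. A first intron shorter than 100 bases was present in 11 of 73 members with at least 2 introns, 15.1%, beside 14.1% of all such nuclear models.

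Malonyl-CoA:ACP acyltransferase loads the building block onto acyl carrier protein. MCT1 (Cz13g05150) had 978 bases in 6 segments, and MCT2 (Cz04g37050) had 1776 bases in 10. They shared 1 internal segment, of 129 bases. The acyl carrier proteins, small proteins that hold the growing chain, had the shortest coding regions in this role. ACP1 (Cz07g17120) had 393 bases in 2 segments and ACP2 (Cz09g30220) 312 bases in 5.

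The ketoacyl synthases KAS1, KAS2, KAS3 and KASX, which carry out the condensation, had 843 to 1500 bases and 3 to 8 introns. KAS2 (UNPLg00257), on an unplaced contig, began with a coding segment of 13 bases. The ketoacyl-ACP reductases, which carry out the first reduction, formed a family of 7 models on 7 chromosomes with 675 to 984 bases. KAR2 (Cz16g00050) was the shortest and held an intron of 643 bases. KAR4 (Cz04g17270) had 966 bases in 6 segments. The introns of the family ranged from 1 in KAR5 (Cz11g27250) and in KAR1 (Cz10g18200) to 6 in the other KAR1 (Cz01g34370) and in KAR3 (Cz15g00050). None of the 21 pairs of reductases had an internal coding segment of equal length and phase in common. KAR5 and KAR1 (Cz10g18200), with 1 intron each, had no internal segment, so pairs with them could share none. FABZ (Cz01g09160), the dehydratase of the cycle, was a manual model of 630 bases in 4 segments. Enoyl-ACP reductase, which closes the cycle, is described in words that the rule does not catch. Its gene ENR (Cz11g20040) had 1140 bases in 8 segments.

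The largest family was that of the long-chain ketoacyl synthases, 18 models on 12 chromosomes. Enzymes of this kind add the carbon units that carry a finished fatty acid to greater lengths. Their coding lengths were close to each other, from 1326 to 1806 bases, while their introns ranged from 1 to 10. The descriptions call 10 of them very-long-chain and 8 long-chain enzymes. Structures were compared through internal coding segments, those with an intron on both sides. A segment was shared when 2 models held it with equal length and equal reading phase, in the same order. At least 2 internal segments were shared in 28 of the 153 pairs of this family, and in 32 of 307 pairs over all families with several models. Among pairs of members of different families the share was 0.0284%, which is 1 of 3521 pairs. Between members and all other nuclear genes it was 0.0258%. Linking the pairs with at least 2 shared segments split the 18 models into a group of 9, a group of 4 and 5 models without a link. Those 5 had fewer than 2 internal segments each, so this rule could not have linked them. This grouping was read from the data and was not tested.

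The group of 9 lay on 6 chromosomes and was built around a run of segments of 185, 218, 245 and 176 bases. LCKAS2 (Cz01g19090), LCKAS1 (Cz03g04040), LCKAS10 (Cz14g16140) and LCKAS11 (Cz14g16150) held the whole run. In LCKAS3 (Cz12g02100) the third segment of the run had 242 bases, and in LCKAS6 (Cz18g09190) it had 248, so the lengths differed by whole codons. LCKAS3 (Cz10g26200) and LCKAS2 (Cz12g02090) held a segment of 403 bases, which equals 185 and 218 bases together and begins in the same phase. The intron between those segments was thus absent from both. It was 256 to 521 bases long in the other 7 models, counting LCKAS7 (Cz18g09230), where a 350-base intron stands before the 218-base segment at a position that coincides with that of LCKAS6 (Cz18g09190). The segments at either end of these models varied more, from 99 to 159 bases at the start and from 195 to 537 at the end. Each of the 4 lengths also occurs elsewhere, the 185-base segment with its phase in 83 nuclear genes outside the family and the 245-base segment in 20.

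The group of 4 consisted of LCKAS1 (Cz06g36280), LCKAS9 (Cz13g06210), LCKAS5 (Cz17g10060) and LCKAS13 (Cz17g12050), with 6 to 10 introns. All 4 held a segment of 84 bases near the start. LCKAS1 (Cz06g36280) and LCKAS5 continued with segments of 113 and 49 bases, and LCKAS9 and LCKAS13 shared segments of 243 and 193 bases farther on. LCKAS5 also held the 193-base segment, and LCKAS1 (Cz06g36280) and LCKAS13 both held a segment of 82 bases. These lengths also occur elsewhere. With its phase, the 84-base segment was present in 127 nuclear genes outside the family, the 113-base segment in 80 and the 49-base segment in 25. The segments of 243, 193 and 82 bases were present in 26, 35 and 49. The 5 models without a link had long uninterrupted coding regions. In LCKAS6 (Cz05g07110), LCKAS7 (Cz11g13060), LCKAS8 (Cz19g03050) and LCKAS14 (Cz13g05050) a single intron followed 254 to 281 coding bases and was followed by 1261 to 1324 more. LCKAS4 (Cz13g05060) had segments of 227, 368 and 893 bases. The first intron lay after the second base of a codon in all 5.

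Intron positions were compared as well. The positions of 2 models were laid over each other with a single shift of a whole number of codons, and the introns that fell on the same coding base were counted. This measure was added after the structures had been seen. At least 2 introns coincided in 40 of the 42 pairs within a group and in 0 of the 111 other pairs of the family. LCKAS6 (Cz05g07110), LCKAS7 (Cz11g13060), LCKAS8 and LCKAS14 have a single intron, so no pair with them could reach 2 introns. LCKAS4 has 2 introns and could not reach 3. At least 3 coincided in 27 pairs, all within a group, whereas the share among pairs of members of different families was 0.0568%. The groups were formed from the same segment lengths, so the 2 measures are not independent.

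The descriptions and the structures divided the family differently. All 8 models described as long-chain carry a version tag in the name, and none of the 10 very-long-chain ones does. Description and tag therefore cannot be told apart here. Of the group of 9, 7 models are described as very-long-chain and 2 as long-chain enzymes. The group of 4 had 2 of each, and the 5 models without a link had 1 very-long-chain and 4 long-chain descriptions.

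**Figure D2:**
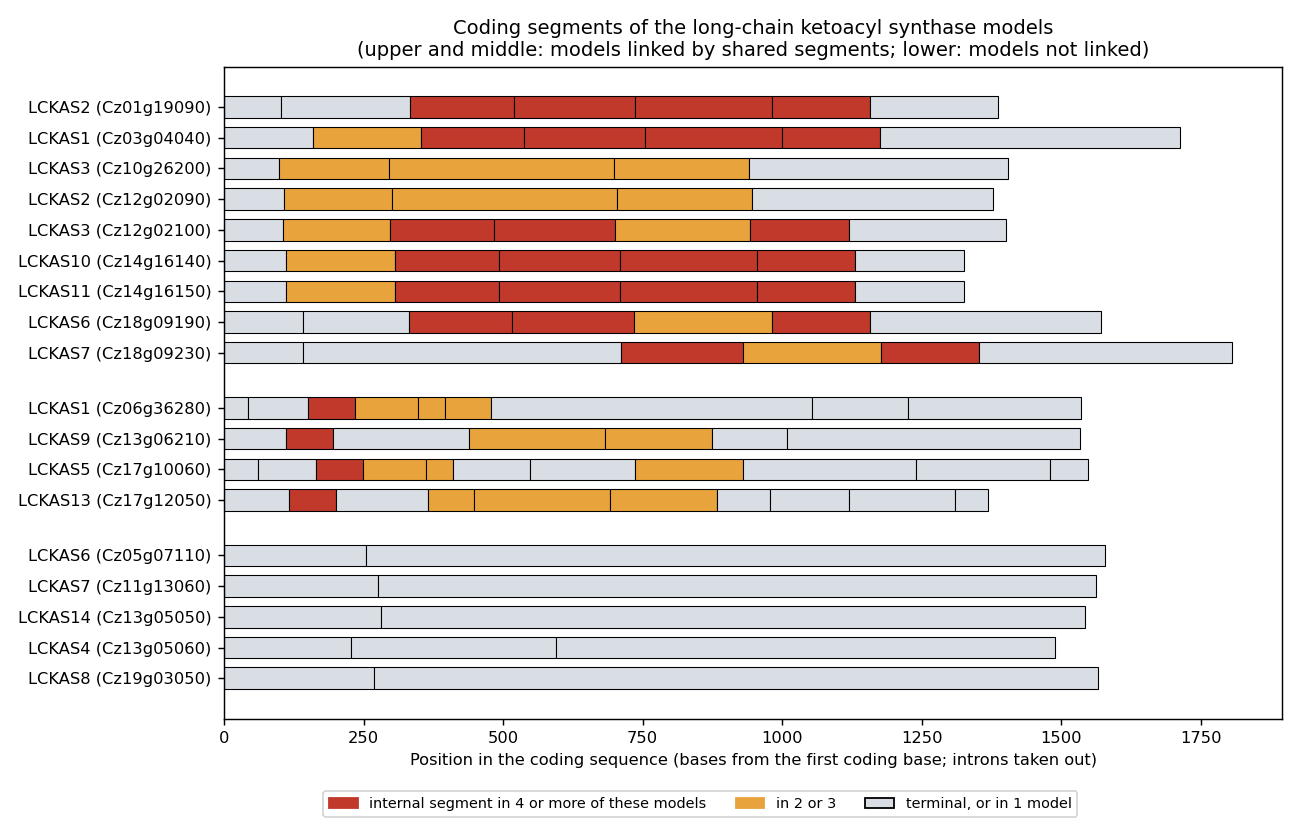
Coding segments of the 18 long-chain ketoacyl synthase models, drawn to scale in bases from the first coding base with introns taken out. Red segments are internal and found with the same length and phase in 4 or more models, orange ones in 2 or 3, and grey ones are terminal or found once. The run of 185, 218, 245 and 176 bases recurs in the upper group, and the lower models have long unbroken segments.

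Names alone did not identify these genes. Of the 88 models, 74 carry a version tag in the name and 14 do not, and 9 names were given to 2 models each, once with and once without the tag. For LCKAS1, LCKAS2, LCKAS3, LCKAS6 and LCKAS7 the 2 bearers also differed in description, which in this family goes with the tag. The bearers of each name shared at most 1 internal segment. LCKAS6 (Cz05g07110), LCKAS7 (Cz11g13060), KAR1 (Cz10g18200), both FAD5A1 models and PDAT (Cz10g07200) had no internal segment. Bearers of these names could therefore share none. The intron numbers of the bearers were 6 and 8, 6 and 4, 4 and 6, 1 and 6, and 1 and 5. Both LCKAS2 models and both LCKAS3 models nevertheless belonged to the group of 9, and 3 introns of the LCKAS3 pair coincided. The bearers of LCKAS1, LCKAS6 and LCKAS7 did not share a group. The other repeated names were KAR1, KAR3, FAD5A1 and PDAT, where the description was the same. The 2 KAR1 genes had 6 introns and 1, and the 2 KAR3 genes had 3 and 6.

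Neighbouring copies were found in 4 places, all on the same strand, and 3 of the 4 pairs were long-chain ketoacyl synthases. LCKAS10 (chromosome 14, 1672943 to 1676233) and LCKAS11 (1678662 to 1682100) lay 2428 bases apart with no gene between them. All 7 coding segments were equal in length, in the order 111, 196, 185, 218, 245, 176 and 195 bases, which gave 1326 coding bases in each. None of their 6 introns was equal, and the differences ran from 24 to 75 bases. Another model with the same coding segments existed for 4 of the 71 members with at least 3 introns, beside 0.809% of all such nuclear models.

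LCKAS2 (Cz12g02090, chromosome 12, 227982 to 230590) and LCKAS3 (Cz12g02100, 233244 to 236536) lay 2653 bases apart and shared 2 internal segments, of 193 and 242 bases. All 4 introns of LCKAS2 coincided with introns of LCKAS3, which had 2 more. At least 2 shared segments were seen in 0.325% of all directly neighbouring nuclear genes, 49 of 15074 pairs. LCKAS14 (chromosome 13, 516266 to 517952) and LCKAS4 (519990 to 521859) lay 2037 bases apart with 1 and 2 introns. LCKAS14 had no internal segment, so none could be shared. A further pair of the group of 9 faced each other on chromosome 18 with 1 gene between. LCKAS6 (Cz18g09190, 969437 to 973390) and LCKAS7 (Cz18g09230, 977509 to 981003) lay 4118 bases apart and shared 3 segments, of 218, 248 and 176 bases. They also shared a first segment of 141 bases. LCKAS7 then had 570 bases unbroken where LCKAS6 had segments of 190 and 185, and 4 introns coincided after a shift of 195 bases.

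Neighbours of different families with at most 1 gene between them formed 2 pairs. LCKAS1 (Cz06g36280, chromosome 6, 3689358 to 3692659) and ATO2B (Cz06g36270, 3685337 to 3688509), a thiolase that cuts acetyl-CoA from a fatty acid in oxidation, were directly adjacent and divergent with 848 bases between their coding regions. On chromosome 11 the acyltransferase DGAT2B and the desaturase FAD6B faced each other, 3008 bases apart, with 1 gene between.

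The desaturases, which place double bonds, comprised 15 models on 9 chromosomes and 1 unplaced contig. SACPD1 (Cz04g09090) and SACPD2 (Cz13g17200) act on stearoyl bound to acyl carrier protein and had 999 bases in 5 segments and 1146 in 7. The other 13 are fatty acid desaturases with 600 to 1587 bases. FADA (Cz12g10230) was a single segment of 990 bases. FAD2B (Cz08g04110), an omega-6 desaturase, had the most segments, 9, of which the first 3 measured 36, 37 and 44 bases. The other omega-6 gene, FAD2A (Cz03g33220), began with a segment of 9 bases and had 690 coding bases against 1281 in FAD2B. The delta-12 genes FAD6A (Cz08g21150) and FAD6B (Cz11g21120) had 5 segments and 2. The delta-6 genes FAD3A, FAD3B, FAD5A2 and FAD5C had 1374, 1587, 1092 and 1566 bases. The delta-9 genes, both named FAD5A1, had 1155 bases (Cz07g00120) and 600 (Cz16g03140), each with 1 intron.

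Among the 78 pairs of fatty acid desaturases, 1 shared at least 2 internal segments. It was that of FAD7A (Cz04g31180, chromosome 4, 3156928 to 3159776) and FAD7B (Cz06g28130, chromosome 6, 2831092 to 2833537), omega-3 desaturases, which make trienoic fatty acids. All 5 internal segments were equal, with 170, 72, 184, 335 and 183 bases. The first segment had 189 bases in FAD7A and 183 in FAD7B, and the last 142 and 139. All 6 introns coincided and none was equal in length. They ran from 165 to 360 bases in FAD7A and from 98 to 349 in FAD7B. These copies lie on different chromosomes. FADA, FAD6B and both FAD5A1 models had no internal segment, so pairs with them could share none.

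Long-chain acyl-CoA synthetases activate free fatty acids. LACS1 (Cz07g22230), LACS2 (Cz11g20120), LACS3 (Cz05g30060) and LACS4 (Cz01g36150) had 1980 to 2271 bases and 8 to 11 introns. LACS2 and LACS4 shared 3 internal segments, of 207, 133 and 145 bases. In LACS1 the segments of 133 and 145 bases were replaced by a single segment of 278 bases with the same starting phase. LACS1 began with segments of 146 and 211 bases, and LACS2 with a single one of 357, their sum. Thus LACS1 lacked an intron that LACS2 has, and LACS2 lacked the first intron of LACS1. LACS3 shared at least 2 segments with none of the other 3. The thiolases ATO2A (Cz04g25080) and ATO2B had 1047 and 1386 bases and 5 and 7 introns, and no internal segment in common.

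Glycerol-3-phosphate dehydrogenase supplies the glycerol backbone, and glycerol-3-phosphate acyltransferase attaches the first chain. GPD1 (Cz10g29180) had 1839 bases in 4 segments and GPD2 (Cz12g24180) 1734 in 9. GPAT1 (Cz11g03260) was a single segment of 1260 bases, whereas GPAT2 (Cz09g31330) had 1314 bases in 5. Members of each pair were thus alike in coding length and unlike in introns.

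Genes for phospholipids and diacylglycerol turnover were 6 models on 6 chromosomes. PCT2 (Cz10g20080), described as the synthase of CDP-diacylglycerol, a phospholipid precursor, had 690 bases in 5 segments. The diacylglycerol kinases DGK1 (Cz05g16250) and DGK2 (Cz01g12160), which turn diacylglycerol into phosphatidate, had 1596 and 1851 bases. LPCAT (Cz02g32040), which reacylates lysophosphatidylcholine, had 921. LCAT1 (Cz17g15210) and LCAT2 (Cz14g23330), described as phosphatidylcholine sterol acyltransferases, had 9 and 8 introns. Each held an internal segment of 29 bases, the shortest internal segments of all members, in different reading phases. LCAT2 also had the shortest intron, 68 bases.

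The lipids of photosynthetic membranes are made by MGD, DGD1, DGD2 and SQD2. MGD (Cz08g30040) makes monogalactosyldiacylglycerol and had 1287 bases in 5 segments. DGD1 (Cz13g19030) and DGD2 (Cz10g17090) add the next galactose. DGD1 began with an unbroken segment of 1363 bases, and DGD2 had 9 segments of 125 to 222 bases. SQD2 (Cz07g23140), the sulfolipid synthase, had 1245 bases in 5 segments. SQD1 (Cz03g31030), which makes its sulfur-containing sugar donor and is not caught by the rule, had 1437 bases in 10. BTA (Cz01g13260), for the betaine lipid synthase, had 2052 coding bases over 8 segments. Its deposited score of 0.32 was 1 of the 13 under 0.5. Others were 0.22 in KAR3 (Cz15g00050), 0.27 in LCAT1 and ATO2A, 0.43 in ACC1 and FAD5A1 (Cz16g03140), and 0.44 in FAD7A.

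Triacylglycerol is made from diacylglycerol by acyltransferases of unrelated types. Type 1 had 4 models. DGAT1D (Cz09g08290, chromosome 9, 896805 to 900970), a manual model described as membrane bound, had 1653 bases in 8 segments. DGAT1A (Cz06g04190) had 516 bases in 3. Its single internal segment, of 112 bases, was shared with DGAT1D, and both of its introns coincided with introns of DGAT1D. DGAT1B (Cz09g23020, chromosome 9, 2303035 to 2304602) and DGAT1C (Cz03g14080, chromosome 3, 1437830 to 1439397) had 798 bases each. Both had segments of 151, 134, 379 and 134 bases and introns of 296, 201 and 273 bases, equal throughout. Equal segments and introns in another model were found for these 2 of the 71 members with at least 3 introns, beside 0.571% of all such nuclear models.

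**Figure D3:**
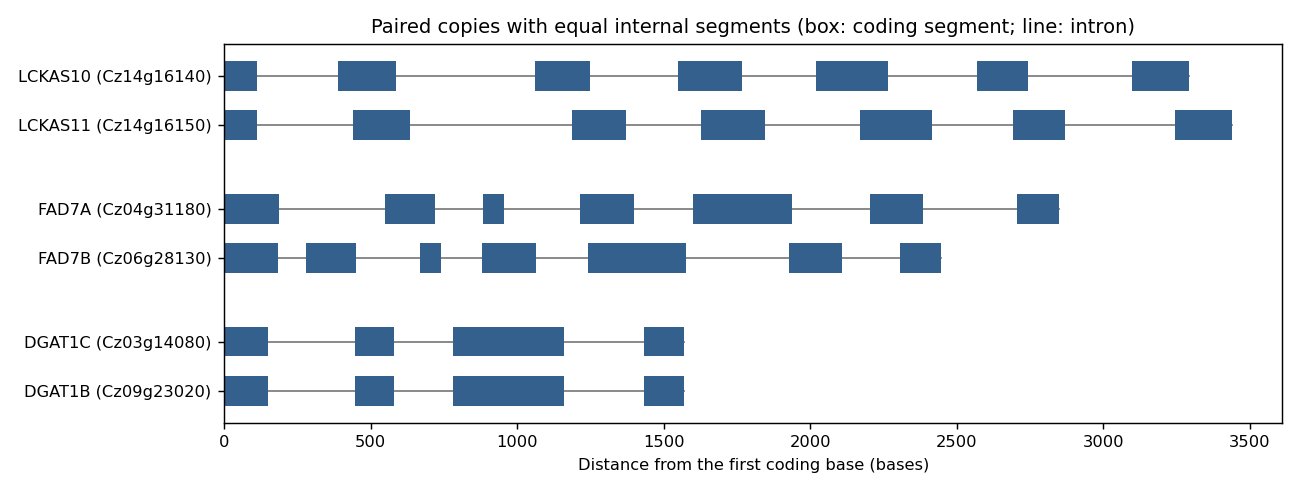
Gene structures of LCKAS10 and LCKAS11, FAD7A and FAD7B, and DGAT1C and DGAT1B, in bases from the first coding base; boxes are coding segments and lines are introns. Introns differ in length in the first 2 pairs and are equal in the DGAT1 pair, where both genes span the same distance.

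The equality of DGAT1B and DGAT1C extended to their neighbours. In a run of 8 consecutive genes on chromosome 3, from 1425947 to 1456447, each model equalled its counterpart on chromosome 9, from 2291152 to 2321652, in strand, in all coding segments and in all introns, 34 introns in total. The start coordinates on both chromosomes differed by 865205 for all 8 genes, so the spacing between the genes was equal too, and both stretches measured 30501 bases. The acyltransferase was the only named gene in the run. The neighbour with most introns, 13, was Cz03g14050 on chromosome 3 and Cz09g22260 on chromosome 9. Beyond the run the genes differed. On the upstream side Cz03g14040 had 10 segments and Cz09g22250 had 7. On the downstream side Cz03g14130 and Cz09g23070 shared a first segment of 220 bases and a first intron of 190 before they diverged. The deposited model scores were equal for 1 of the 8 gene pairs, and were 0.73 for DGAT1C and 0.71 for DGAT1B. Runs of neighbouring models equal in coding segments and introns were also counted over the nuclear annotation by a looser rule. Strand and spacing were not compared, and reversed gene order was allowed. This gave 12 runs of at least 2 genes, the run described here included, of which the longest had 10 genes. The bases of these stretches were not analysed here, so how alike the sequences are was not tested.

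**Figure D4:**
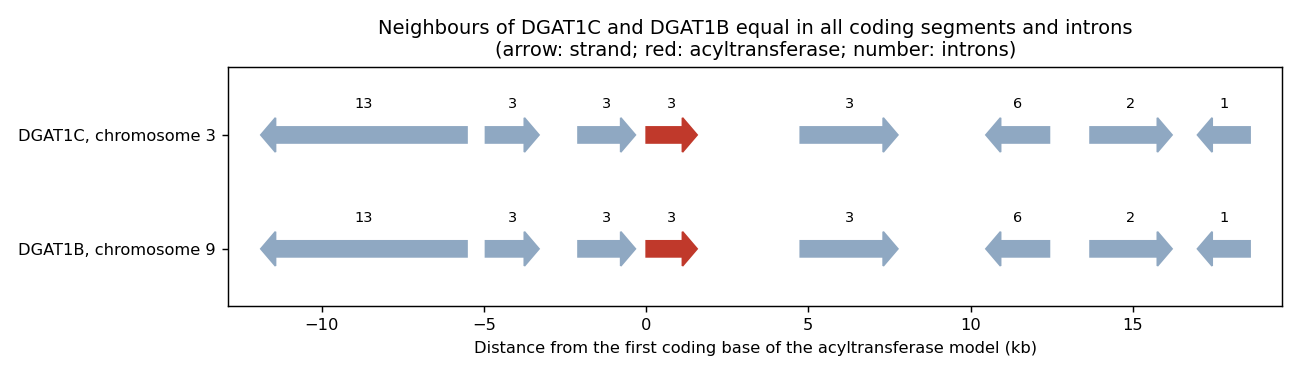
The 8 genes around DGAT1C on chromosome 3 and DGAT1B on chromosome 9, in kb from the first coding base of the acyltransferase, which is red. Arrows point along the coding strand and numbers are introns. The arrows of both chromosomes lie at the same distances.

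Type 2 acyltransferases had 7 models on 5 chromosomes, with 828 to 1311 bases. DGAT2E (Cz15g22140) was a single segment of 1311 bases, and DGAT2C (Cz11g24150) had 951 bases in 7 segments. DGAT2A, DGAT2B and DGAT2G had 3 introns each, DGAT2F had 4 and DGAT2D had 1. DGAT2F and DGAT2G are described as type 2B. None of the 21 pairs shared at least 2 internal segments, but DGAT2D and DGAT2E had no internal segment, so pairs with them could share none. DGAT2A (Cz08g14220) held a segment of 363 bases where DGAT2B (Cz11g21100) held segments of 150 and 213, which sum to it and begin in the same phase.

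PDAT moves a chain from a phospholipid to diacylglycerol, and its name was given to adjacent models on the minus strand of chromosome 10. Cz10g07210 (775913 to 778338) had 1050 bases in 6 segments, and Cz10g07200 (775355 to 775735), downstream of it, was a single segment of 381 bases. They were 177 bases apart, a distance within the range of the members' introns, and 10.8% of neighbouring same-strand nuclear genes were at most that far apart. Their coding lengths sum to 1431 bases. Whether they are parts of 1 gene was not tested. Triacylglycerol lipases release the chains again. LIP1 (Cz02g24260) had 1356 bases in 6 segments, and LIP2 (Cz13g03050) had 4722 in 8, of which a single segment held 2934.

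The members were also compared by structure with genes outside the rule. Each member was laid over each of the other nuclear genes with a single shift of whole codons, 1336368 pairs. At least 3 introns coincided in 422 pairs, 0.0316%. At least 4 coincided in 9 pairs, 0.000673%, a limit chosen after the values were seen. All 9 involved long-chain ketoacyl synthases, and the genes matched were 3 models without a name. Shared internal segments were counted over the same pairs. At least 3 were shared in 14 pairs, 0.00105%, of which 7 involved long-chain ketoacyl synthases and 7 involved CAC2, ACC1, MCT2, GPD2 or LIP2. In the latter 7 pairs, 2 or 3 introns coincided. Cz03g04160 (chromosome 3, 474838 to 479068) lay 50513 bases from LCKAS1 (Cz03g04040), with 10 genes between, and had 6 introns in common with it. It held segments of 193, 185 and 218 bases, then 133 and 112, which sum to the 245 bases of LCKAS1, and then 176. Cz10g12190, on chromosome 10, held segments of 218 and 245 bases after one of 378, the sum of 193 and 185, and had 4 introns in common with LCKAS1 (Cz03g04040). Cz11g01190, on chromosome 11, began like LCKAS5 with 104, 84 and 113 bases after its first segment, and 6 introns coincided. It went on with 131 bases, where LCKAS1 (Cz06g36280) has 49 and 82. What these models encode was not examined.

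Further genes of the pathway, matched by word patterns for enoyl enzymes, thioesterases, phosphatidyl lipids, CDP intermediates, ethanolamine and sulfoquinovose, added 15 named models outside the rule. They had a median of 1041 coding bases and 5.07 ± 3.11 introns (SD, n = 15 genes). Thioesterase and acylglycerophosphate patterns matched no description. Among the 15 were 5 models described as enoyl-CoA ACP hydratase or hydratase/isomerase, with 702 to 2715 bases and 0 to 5 introns. The name ECH2 was given to 2 of them, Cz09g10030 and Cz11g22170. Phosphatidylglycerophosphate synthase, which leads to the phospholipid of thylakoids, had 3 models, of which PGP3 (Cz09g29200) was the longest with 4956 bases in 13 segments. PAP (Cz08g10040), a phosphatidate phosphatase that yields diacylglycerol, had 825 bases in 6 segments.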

How the data were processed

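Stranded libraries of RNA depleted of ribosomal RNA were made from 14 cultures, per the labels' protocols. Read alignment and quantification are not described in the sources used here beyond the tools Cuffdiff 2.2.1 and STAR 2.4.0j, listed in the submitters' processing notes. The file used here is the gene annotation deposited for the series, whose genome build is not given in the sources used here. Positions, coding phases and a score per gene model were used as deposited by the authors, and per the file's source column models came from AUGUSTUS or were manual. Of the members, 83 were scored and 5 were manual. All 88 had a coding length that is a multiple of 3, and their ends were the ends of the coding region, so no untranslated sequence is included. The file held 0 columns of per-sample values.

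Members were selected and put into 24 families by words in the deposited description, and positions are counted from 1. Coding segments, introns and neighbours were computed with Python 3.11.15 and pandas 2.3.3, and segment matching was tested on simulated models. The members and lists were chosen with earlier results of these data known. All members could be named, and no test was made, since gene models are not replicates. Alternatives included other model sets, wider neighbour limits and other matching rules.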

Additional observations from a re-analysis of the deposited data

How the results depend on the processing

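Of 23 alternatives, 22 left the value within its stated spread, which is 1.5 times for a count and 1 SD among genes for coding length and introns. The SDs, 847.6 bases and 3.06 introns, are wide limits for a median or mean over 88 genes, so this is a weak check. Some alternatives could change nothing. Requiring introns of at least 30 bases removed none, as the shortest had 68, and all 4 neighbouring pairs were already on the same strand. Requiring at least 3 shared internal segments in place of 2 gave 20 pairs within families in place of 32, by construction. Allowing lengths to differ by 3 bases gave 39 pairs, and counting at least 3 coinciding introns, an alternative added after the data were seen, gave 32. Without models scored under 0.5 or not scored, 70 members remained on all 19 chromosomes, with a median coding length of 1320 bases. Allowing up to 5 genes or 20000 bases between copies gave 5 neighbouring pairs in place of 4. No member was described as belonging outside lipid metabolism, so that alternative changed nothing. No paired analysis was possible because each condition had 1 library and no value of any sample was analysed. The score and the gene models limit every count, since a missed or misplaced intron changes which segments are shared.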

Other observations

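Beside the neighbouring ketoacyl synthases LCKAS14 and LCKAS4 on chromosome 13 lay a further model without a name. Cz13g05070 (522783 to 525134) lay 923 bases from LCKAS4 on the opposite strand and had segments of 290, 371 and 932 bases, where LCKAS4 had 227, 368 and 893. The middle segments began in the same phase. Next to the shorter PDAT model, on the same strand and 230 bases downstream, lay Cz10g07190, a single segment of 333 bases without a name. Both were chosen after their values were seen, and what they encode was not examined.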
